A study of Mus musculus with 5 samples.

Results

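A set of 10 secreted and nuclear components of Wnt signalling were followed in mouse sarcoma cells in which doxycycline switches on the EWS/ATF1 fusion gene. They are the ligand genes Wnt5a and Wnt4, the agonist gene Rspo1, the antagonist genes, and the feedback and target genes Axin2 and Lef1. The antagonist genes are Sfrp1, Sfrp2, Dkk2 and Wif1, and the Dickkopf family gene Dkk3 was grouped with them. The 10 genes were chosen by symbol, through the RefSeq accession that the scanner files give for each probe, out of 20016 named genes, and all 10 were found, on 11 probes. Axin2 has 2 probes, and the brighter one stands for it. Expression was measured on 5 one-colour arrays, 1 per group: a control, a low-dose and a high-dose culture harvested at 3 h, and a high-dose and a control culture harvested at 48 h. All 5 groups are lines grown from soft tissue sarcomas of mice carrying the inducible EWS/ATF1 alleles, of mixed strain background (ICR, 129 and C57/BL6), so the control cultures carry the fusion gene too. The sources used here do not give the doxycycline concentrations, whether control cultures received any, which line gave which array, or which cells of the mouse the fusion was induced in. With 1 array per group no difference has a replicate check, no p-value is given, and lines and treatments may be mixed up in any difference.

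Wnt proteins bind Frizzled receptors and the co-receptors LRP5 and LRP6, which spares beta-catenin from destruction and lets it work with the DNA-binding factors LEF1 and TCF7 in the nucleus. R-spondins, through the LGR receptors, keep Frizzled proteins at the cell surface by neutralising the ubiquitin ligases ZNRF3 and RNF43. Secreted frizzled-related proteins and WIF1 capture Wnt proteins outside the cell. Some Dickkopf proteins, DKK2 among them, act on the LRP co-receptors. In the neural crest, from which the study's title derives these sarcomas, Wnt signalling takes part in induction and in the choice of cell fate.

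Upstream sequences are shown for 3 genes that the results below turn on and that have an entry in the RefSeq table (assembly GRCm38.p6): Rspo1, lower already at 3 h of the high dose, Dkk2, not above background at 48 h of the high dose, and Wnt4, higher there. Each run is the 250 bases before the start site on the plus strand, from chr4:124986180-124986429 for Rspo1, chr3:132085042-132085291 for Dkk2 and chr4:137277385-137277634 for Wnt4. Capitals mark matches, on either strand, to the TCF/LEF core (CTTTGA or CTTTGT), the cAMP response element that ATF1 binds (TGACG or the full TGACGTCA), the AP-1 site (TGANTCA), the TATA box (TATAAA), the CCAAT box and the GC box (GGGCGG). The motifs were chosen after the windows had been seen.
Rspo1: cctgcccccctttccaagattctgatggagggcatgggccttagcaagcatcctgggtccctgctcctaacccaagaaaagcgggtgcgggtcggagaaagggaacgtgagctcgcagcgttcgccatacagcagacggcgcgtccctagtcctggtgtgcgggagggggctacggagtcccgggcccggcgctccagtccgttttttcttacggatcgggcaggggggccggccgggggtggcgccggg
Dkk2: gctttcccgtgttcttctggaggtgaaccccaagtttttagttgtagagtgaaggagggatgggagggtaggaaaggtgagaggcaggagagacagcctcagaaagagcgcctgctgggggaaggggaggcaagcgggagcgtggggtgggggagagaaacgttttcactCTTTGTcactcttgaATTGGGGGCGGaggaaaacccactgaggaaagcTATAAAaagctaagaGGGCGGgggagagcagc
Wnt4: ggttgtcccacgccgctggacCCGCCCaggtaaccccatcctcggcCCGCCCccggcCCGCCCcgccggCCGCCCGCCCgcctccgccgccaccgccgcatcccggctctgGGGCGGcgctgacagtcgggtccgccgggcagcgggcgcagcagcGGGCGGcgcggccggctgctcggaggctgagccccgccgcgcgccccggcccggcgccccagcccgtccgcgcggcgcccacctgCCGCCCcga
The Rspo1 run holds none of these letters. In the Dkk2 run, CTTTGT begins 80 bases and TATAAA 32 bases before the start site, and a reversed CCAAT runs into the GGGCGG that begins 60 bases before it. The Wnt4 run is 85.2% G and C, with 8 matches to GGGCGG, 1 pair of them overlapping. Among 32536 upstream runs of the same length, 13.9% hold CTTTGA, 16.5% CTTTGT, 17.9% TGACG, 1.56% TGACGTCA, 6.73% TGANTCA, 12.3% TATAAA, 33.8% CCAAT and 33% GGGCGG. Windows for Sfrp2, Lef1, Wif1 and Axin2 were searched too: 1 of the 4 Lef1 windows holds CTTTGA at 2 positions, and neither TGACG nor TGANTCA is in any window of the 7 genes searched. A match is a description of letters, and its absence says nothing of a factor that may bind elsewhere.

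The share of the 55681 probes above background was 55.5% to 60.0% per array, and the 75th percentile of signal lay between 420 and 725. Each level below is the log2 of a probe's background-subtracted signal minus the log2 of its array's 75th percentile, so 0 is the 75th percentile and levels are compared between arrays, not between probes. The words higher and lower without a value mean a difference of at least 2-fold (1 on the log2 scale) where the gene's probe was above background on both arrays. Where the probe was below background on 1 array, an at-least bound was computed against that array's lowest signal above background or the probe's own, whichever was higher. The error printed with a difference is the scanner software's. For 266 to 280 probes with many replicate spots, above background on both arrays, the median SD of a difference was 0.0885 to 0.0917. The members are not among these, as their probes have 1 spot each. Neither the scanner error nor this SD covers variation between cultures. The nearest measure of that here is the difference between the control arrays of 48 h and 3 h. Those arrays also differ in time of harvest and may differ in line, which cannot be told apart from variation between cultures. Fos, the gene in the study's title, was at -2.22, -0.49 and 2.18 on the 3 h arrays of control, low and high dose, at 2.86 on the 48 h high-dose array and at -2.22 on the 48 h control array.

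**Figure D1:**
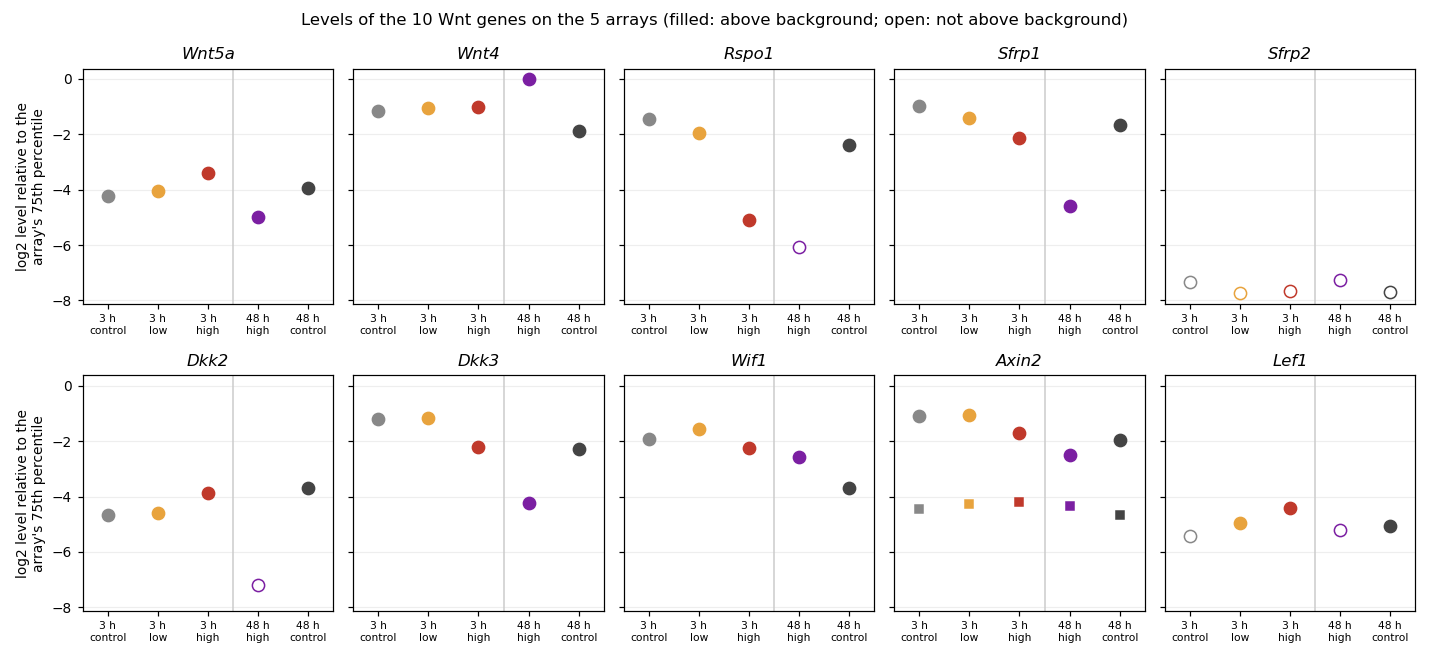
Level of each of the 10 genes (y axis, log2 relative to the array's 75th percentile) on the 5 arrays (x axis, time and dose), 1 point per array, filled where the probe was above background; squares are the second Axin2 probe. Rspo1 is at -5.09 on the 3 h high-dose array and between -2.38 and -1.46 on the arrays without the high dose, and Wnt4 is highest, at -0.01, on the 48 h high-dose array.

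After 3 h of the high dose, the agonist Rspo1, the antagonist Sfrp1 and the Dickkopf gene Dkk3 were lower than in the 3 h control. No member was 2-fold higher. Of the 10 genes, 8 were above background on both arrays, 3 of these were lower and 0 higher, with a median difference of -0.48. Among all 14005 genes measured on both arrays, 1.45% were lower and 1.85% higher, with a median of -0.01. The members were chosen with earlier results of these data known. Counts of members beside such shares, here and below, are therefore a description and not a test. With each array centred on its median in place of the 75th percentile, 189 genes were higher and 278 lower, in place of 259 and 203, and the median of all genes moved to -0.14. With another background correction (normexp), Rspo1 alone of the members passed 2-fold, at -1.72, and Sfrp1 and Dkk3 were at -0.76 and -0.67. The low dose at 3 h gave 0 calls among 8 members measured, where 0.789% of 14062 genes were higher and 0.583% lower. Centred on the median, 91 genes were higher and 101 lower at the low dose, in place of 111 and 82.

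After 48 h of the high dose, the ligand Wnt4 and the antagonist Wif1 were higher than in the 48 h control, and Wnt5a, Sfrp1 and Dkk3 were lower. Rspo1 and Dkk2 were above background in the control only. Of the 10 genes 6 were measured on both arrays, 2 of them higher and 3 lower (median -0.81), beside 9.94% higher and 10.1% lower of 13739 genes (median 0.05). Counting bounds, 5 members were lower, beside 12% of 14949 genes. With normexp, Wnt4 (1.57) and Sfrp1 (-1.01) passed 2-fold, Wif1, Dkk3 and Rspo1 were at 0.81, -0.72 and -0.82, Dkk2 was at -0.26 and Wnt5a at 0.09. The control arrays also differed from each other: Dkk3 and Wif1, 2 of 8 members measured, were lower at 48 h than at 3 h, where 1.36% of 14018 genes were lower and 2.5% higher. Centred on the median, 252 genes were higher and 280 lower between the controls, in place of 351 and 191.

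**Figure D2:**
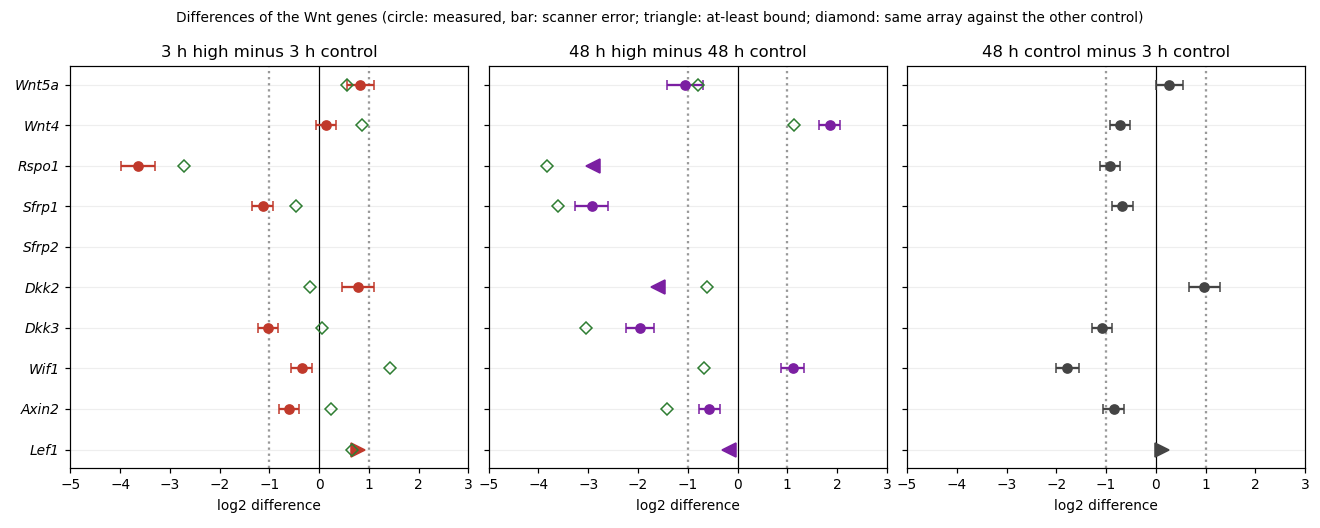
Log2 difference (x axis) of each member (y axis) for the high dose minus control at 3 h and at 48 h, and for the 48 h minus the 3 h control; bars are the scanner error, triangles at-least bounds, dotted lines 2-fold, and diamonds the same high-dose array against the other control. Rspo1 lies left of the 2-fold line against either control at both times, while Wif1 changes sign with the control used at each time.

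Among the ligands, Wnt4, which is needed for the formation of kidney tubules, kept close levels at 3 h and differed at 48 h. Its levels were -1.14, -1.07 and -1.0 on the 3 h arrays of control, low and high dose, -0.01 on the 48 h high-dose array and -1.86 on the 48 h control array. The 3 arrays of 3 h lay within 0.14 of each other, and the 48 h high-dose array stood above all others. The 48 h difference was 1.85 (3.61-fold, scanner error 0.206), and against the 3 h control the same array differed by 1.13. The control arrays differed by -0.72.

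Wnt5a, a ligand known mainly for signalling without beta-catenin, in cell polarity and movement, had low signals on every array, 13.1 to 53.2 units, all above background. Its levels were -4.21, -4.06 and -3.39 on the 3 h arrays of control, low and high dose, -5.0 on the 48 h high-dose array and -3.94 on the 48 h control array. It was highest with the high dose at 3 h and lowest with the high dose at 48 h. The difference was 0.83 at 3 h (error 0.266), under 2-fold, and -1.06 at 48 h (error 0.368), which became -0.79 against the 3 h control.

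Rspo1, whose product raises the sensitivity of cells to Wnt proteins, had the largest difference of the members at 3 h. Its levels were -1.46, -1.94 and -5.09 on the 3 h arrays of control, low and high dose, -6.06 on the 48 h high-dose array, where it was not well above background, and -2.38 on the 48 h control array. Both high-dose arrays lay below the other 3, and the low-dose array lay near the controls. On the linear scale the processed signals were 265, 152 and 16.3 units for the 3 h series, and 6.29 units at 48 h of the high dose against 125 units in the 48 h control. The 3 h difference of high dose minus control was -3.64 (12.4-fold lower, error 0.337), and 0.0571% of measured genes differed by as much in either direction. It was -2.72 against the 48 h control and -3.15 against the low dose, while the low dose differed from the 3 h control by -0.49 (error 0.208). At 48 h the gene was at least 7.48-fold lower with the high dose, and the control arrays differed by -0.92.

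Sfrp1, which encodes a secreted antagonist that binds Wnt proteins, followed the same order of arrays. Its levels were -1.0, -1.39 and -2.14 on the 3 h arrays of control, low and high dose, -4.60 on the 48 h high-dose array and -1.67 on the 48 h control array. The 48 h high-dose array stood 2.47 below the next lowest, the 3 h high-dose array. The 48 h difference was -2.93 (7.64-fold lower, error 0.339) and -3.61 against the 3 h control. The 3 h difference of -1.14 (error 0.208) became -0.47 against the 48 h control, under 2-fold. The related Sfrp2 was not well above background on any array, with signals of 2.75 to 4.47 units, so no difference is given for it.

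Dkk3, a divergent member of the Dickkopf family, was lowest at 48 h of the high dose. Its levels were -1.20, -1.17 and -2.23 on the 3 h arrays of control, low and high dose, -4.23 on the 48 h high-dose array and -2.28 on the 48 h control array. The 3 h high-dose and the 48 h control arrays were within 0.05 of each other. The 48 h difference was -1.96 (3.89-fold lower, error 0.286) and -3.04 against the 3 h control. The 3 h difference of -1.03 (error 0.208) did not hold against the 48 h control, where it was 0.05.

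Dkk2, a Dickkopf protein that acts on LRP6, was dim on all arrays, at 28.5, 24.0 and 37.8 units on the 3 h arrays of control, low and high dose, 2.85 units on the 48 h high-dose array and 50.3 units on the 48 h control array. On the log2 scale these were -4.67, -4.61, -3.88, -7.20 and -3.69. Only the 48 h high-dose value was not well above background. There the gene was at least 3.01-fold lower than in the 48 h control, a bound of -1.59 that was -0.61 against the 3 h control. The 3 h difference was 0.79 (error 0.321), and the control arrays differed by 0.98.

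Wif1, which encodes a secreted protein that binds Wnt ligands directly, differed most between the control arrays. Its levels were -1.91, -1.55 and -2.26 on the 3 h arrays of control, low and high dose, -2.58 on the 48 h high-dose array and -3.69 on the 48 h control array. The 48 h control stood apart, 1.11 below the next lowest array. The 48 h difference of 1.11 (2.16-fold, error 0.227) was -0.67 against the 3 h control, and the 3 h difference of -0.35 (error 0.209) was 1.43 against the 48 h control. The control arrays differed by -1.78, more than the high dose differed from its own control at either time.

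Axin2, a scaffold of the beta-catenin destruction complex and a common feedback target of the pathway, stayed under 2-fold in each comparison of high dose and control at the same time. Its levels were -1.09, -1.07 and -1.70 on the 3 h arrays of control, low and high dose, -2.51 on the 48 h high-dose array and -1.94 on the 48 h control array. The differences were -0.61 at 3 h (error 0.206) and -0.57 at 48 h (error 0.213), and the control arrays differed by -0.85. Against the other control array, the differences were 0.24 at 3 h, the opposite sign, and -1.42 at 48 h. The dimmer Axin2 probe gave 0.27 at 3 h and 0.33 at 48 h, the opposite sign, so the probes of this gene do not give 1 direction.

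Lef1, a DNA-binding partner of beta-catenin that is also induced by it, was near background throughout. Its levels were -5.43, -4.95 and -4.41 on the 3 h arrays of control, low and high dose, -5.22 on the 48 h high-dose array and -5.05 on the 48 h control array. The 3 h control and the 48 h high-dose values were not well above background. The 3 h high-dose array was the highest, at least 1.71-fold above the 3 h control, and its difference from the low dose was 0.55 (error 0.315). Neither value reached 2-fold.

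The direct comparison of the doses at 3 h, which contains no control array, gave 2 members lower and 0 higher of 9 measured, beside 0.913% of 14349 genes lower and 1.27% higher. These were Rspo1 at -3.15 (8.87-fold lower, error 0.337) and Dkk3 at -1.06 (2.08-fold lower, error 0.208). Sfrp1, Wif1 and Axin2 differed by -0.74, -0.72 and -0.63, and Dkk2 and Wnt5a by 0.73 and 0.67. Wnt4 differed by 0.06. From 3 h to 48 h of the high dose, Wnt5a (-1.61), Sfrp1 (-2.47) and Dkk3 (-2.01) were lower at the later time, 3 of 6 measured and 0 higher, beside 8.38% and 9.17% of 13772 genes. Dkk2 was at least 2.64-fold lower there, beside 10.1% of 14935 genes lower with bounds counted.

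Other genes of the pathway were taken from a list of 100 by role, all with a probe. For the high dose at 3 h, 78 had signal above background on both arrays, 2 higher and 1 lower with a median of 0.09, beside 1.85% and 1.45% of all measured genes, so the count was near that background. The nuclear partner Tcf7 was at 1.58 and the planar polarity cadherin Celsr1 at 1.07. Celsr1 fell under 2-fold with median centring (0.95), with normexp (0.71) and against the 48 h control (0.92). The cyclin Ccnd1, a frequently cited beta-catenin target, was at -2.43, but its level on the 48 h control array, -4.50, was near that at the high dose, -4.77. Dkk1, the classical LRP6 antagonist and itself a Wnt target, was at least 2.88-fold higher than in the 3 h control. Its levels were -7.30, -7.71 and -3.65 on the 3 h arrays of control, low and high dose, -1.80 on the 48 h high-dose array and -7.67 on the 48 h control array. It was above background on the high-dose arrays and on neither control nor the low-dose array. At the low dose, Fzd4 (1.29) and Tcf7 (1.03) were higher and Fzd10 (-1.16) was lower, of 78 measured with a median of 0.11, beside 0.789% and 0.583% of all genes. Tcf7 fell under 2-fold with median centring (0.96) and normexp (0.73), and all of them did against the 48 h control, at 0.98 for Fzd4, 0.63 for Tcf7 and -0.33 for Fzd10. A dimmer probe of the target gene Nkd2 gave -2.05 for the low dose (brightest -0.06), and the mean over its probes was -1.05. Between the high and the low dose that dimmer probe gave 1.48 (brightest -0.09).

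The high dose at 48 h gave 10 higher and 13 lower of 74 measured pathway genes, with a median of -0.04, beside 9.94% and 10.1% of all measured genes. As bounds, 1 more was higher and 7 more were lower, where 12% of all genes were lower with bounds counted. The share of all genes higher with bounds counted was not computed. Beside Rspo1, other genes of the R-spondin branch were lower: Rspo2 was at least 21.0-fold and the R-spondin receptor gene Lgr4 at least 7.68-fold lower, and the ubiquitin ligase gene Rnf43, chosen for mention with its value known, gave -1.42 (-0.37 with normexp). Rspo2 was at -7.06 on the 48 h high-dose array and -0.89 on the 48 h control array, with -1.36, -2.06 and -1.19 on the 3 h arrays of control, low and high dose. Unlike Rspo1, it therefore had no lower level at 3 h of the high dose. Znrf3, the other ligase of the branch, differed by 0.59, and Rspo3, Rspo4, Lgr5 and Lgr6 were not above background on any array.

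Receptor genes moved both ways at 48 h. Fzd10 was higher at 3.84, Fzd5 at 2.15 and Fzd3 at 1.96, while Fzd4 (-2.82), Fzd7 (-2.61) and Fzd1 (-1.86) were lower, and Fzd6 and the Wnt5a receptor gene Ror1 were at least 2.5-fold and 2.17-fold lower. The dimmer probes gave 1.67 for Fzd5 and -1.05 for Fzd7. The ligand genes were split as well, with Wnt2 at 2.83 and Wnt10a at 2.33, and Wnt16 at -2.44, Wnt10b at -2.01 (-0.48 with normexp) and Wnt9a at -1.90. Wnt2 was at -5.38 on the 48 h control array, near the lowest level above background there, -5.45. It was not above background on the 3 h control array. Dkk1 was at least 12.6-fold higher than in the 48 h control and Frzb, a further frizzled-related antagonist, at least 2.71-fold lower. Among textbook targets Sp5 was higher at 1.29 (0.69 with normexp), Nkd1 was lower at -2.86, and the Notch ligand gene Jag1 and the receptor gene Tnfrsf19 were at least 22.6-fold and 4.78-fold lower. The corepressor gene Tle2 was at -2.97, and the polarity genes Vangl1 and Celsr1 at 1.94 and 1.79. All 14 genes of the cytoplasmic relay, from the Dishevelled genes to Ctnnb1, which encodes beta-catenin, stayed under 2-fold by their brightest probe in both high-dose comparisons, with Ctnnb1 at -0.69 and Gsk3b at -0.48 at 48 h. Dimmer probes of Btrc and Tnks2 were past it at 48 h, at 1.55 and 1.11, where the brightest gave -0.31 and -0.18. Dimmer probes also passed 2-fold for the corepressor gene Tle4 (-1.58, brightest -0.40) and the polarity gene Vangl2 (1.01, brightest 0.81) at 48 h, and for Fzd2 (-1.29, brightest -0.79) at 3 h of the high dose.

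**Figure D3:**
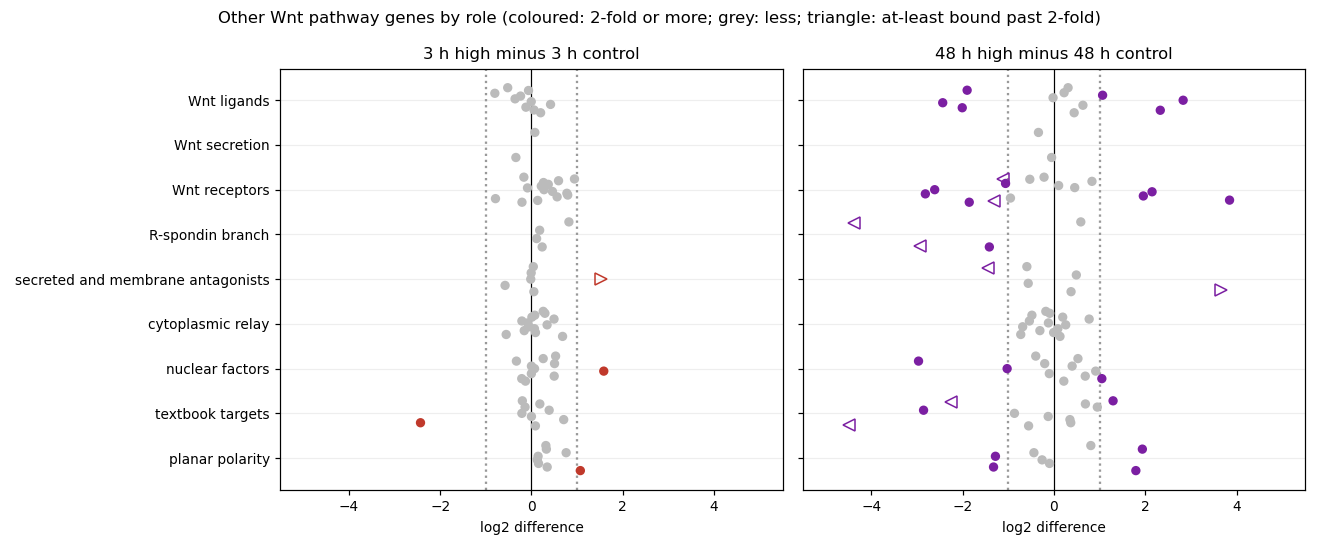
Log2 difference (x axis) of the other Wnt pathway genes by role (y axis), for the high dose minus control at 3 h and at 48 h; grey points are under 2-fold, coloured points at or past it, and triangles are at-least bounds. At 3 h 3 measured genes are past 2-fold, and at 48 h 23 are, on both sides of 0, with none in the cytoplasmic relay by the brightest probe of each gene.

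Lists of other kinds of gene also differed between arrays, mainly at 48 h of the high dose. Their part in the members' results was not tested. At 3 h of the high dose, no proliferation or endothelial gene passed 2-fold against the 3 h control. Of the 7 mesenchymal genes, Col3a1 was lower, with a list median of -0.45, where 1.45% of all genes were lower. Against the low dose, Col1a1 and Thy1 were lower, with a list median of -0.88, where 0.913% of all genes were lower. Of 13739 genes measured on both 48 h arrays, 9.94% were higher and 10.1% lower with the high dose. The 8 proliferation genes were all higher at 48 h of the high dose, with a summed signal of 76.5 against 2.83 in the 48 h control, in multiples of the array's 75th percentile, and 2.34 to 2.58 at 3 h. The mesenchymal list had 5 of 7 genes lower, summing to 53.2 against 98.3, with 98.1 to 111 at 3 h. Most of that sum is Vim, and without it the list summed to 1.27 against 6.33. On the 3 h arrays of control, low and high dose it then summed to 5.27, 5.80 and 3.14. In the macrophage list 4 of 10 genes were higher and 4 more passed 2-fold as bounds, with no share over all genes computed for higher bounds. The sum was 45.4 against 8.54, with 7.17 to 8.79 at 3 h. Csf1r carried most of this sum, and the rest of the list summed to 5.96 against 1.12, with 0.91 to 2.92 at 3 h. In the same list, the high dose at 3 h had lower Cd74 and Ctss than its control, and so had the 48 h control compared with that of 3 h. Fewer cells of a type and less RNA per cell cannot be told apart in these bulk samples. Tyrobp, Lyz2 and C1qc were not above background on the 3 h high-dose and the 48 h control arrays. On these arrays Rspo1 stood at -5.09 and -2.38, Sfrp1 at -2.14 and -1.67, and Dkk3 at -2.23 and -2.28. Csf1r, Adgre1 and C1qb of the macrophage list stayed under 2-fold from the 3 h control on both. Csf1r was at 2.65 and 2.89, beside 2.55 on the 3 h control array. Adgre1 was at -4.90 and -4.38, beside -4.64, and C1qb at -3.32 and -3.62, beside -2.85. Of the melanocyte and Schwann list, Sox10, Mitf and S100b were above background on all 5 arrays and Dct on none. Cdh5, Emcn and Cldn5 of the endothelial list, Cdh1 and Krt8 of the epithelial list and Myod1, Myog, Des and Myh3 of the muscle list were above background on none, while Pecam1, Kdr, Krt5 and Krt14 were on all 5. Epcam was above background on the 3 h high-dose array alone, at -2.32. Acta1 was higher at 3 h than in the 3 h control with the high dose (1.33) and the low dose (1.82), and at 48 h of the high dose Krt14 was lower and Tek lower as a bound.

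Genes with the most similar profile were sought among 13471 genes above background on all 5 arrays, by the mean absolute difference of levels after centring each gene over the arrays. For Wnt4 these were Cracd at 0.0538 and Adgrb2 at 0.0626. For Sfrp1 they were Gucy1b1, a guanylate cyclase subunit, at 0.0766 and Rtn4rl1 at 0.0978, for Wnt5a the host RNA Mir100hg at 0.0387 and Ccdc141 at 0.0837, and for Axin2 Wipf3 at 0.0565 and Astn1 at 0.0663. Dkk3 and Wif1 had more distant neighbours, Krt9 at 0.155 and Fxyd7 at 0.164 for Dkk3, and the transcription factor gene Gata2 at 0.139 and Csrp2 at 0.147 for Wif1. With 5 points and so many genes, close profiles arise easily, and likeness is given as a description.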

How the data were processed

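RNA was labelled with Cy3 and hybridised to 1-colour Agilent arrays, all on 1 slide and in 1 scan, per the labels and the file headers. The deposited files hold spot intensities on a linear scale. Per the file headers they were background-subtracted and detrended within each array by the authors' Agilent Feature Extraction 10.7.3.1, named in the submitters' processing notes, and not scaled between arrays. The deposited well-above-background flags are another column of those files. Control spots and outlier spots (111 to 146 per array) were left out, signals were taken to log2, the array's 75th percentile was subtracted, and replicate spots were averaged by probe. Above background means that a share of at least 0.5 of a probe's spots carried the flag. Accessions were matched to RefSeq's table of GRCm38.p6 for symbols and upstream sequence, with no array coordinates used, since the headers name another build: 26413 probes received 1 symbol and 29268 none. The deposited value table matched its arrays' processed signal within 0.001 on the log2 scale for at least 99.9856% of probes, so it is linear, unscaled and uncentred; its column medians were 38.3, 32.5 and 31.9 for the 3 h arrays of control, low and high dose, 23.9 for the 48 h high dose and 37.7 for the 48 h control. Named pathway genes are up to 8 per direction with the largest calls or bounds, and examples of genes not called.

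The members and lists were chosen with earlier results of these data known. The 2-fold rule was tested on simulated data whose noise was the scanner error alone and whose planted changes were all past 2-fold. That test does not cover variation between cultures. The alternatives were other scalings, normexp background correction (limma 3.58.1 in R 4.3.3, offset 50, on median spot signals, because the files hold no mean spot signal), the value table, no filter on dim probes, the mean over probes and the other control array. Analyses used Python 3.11.15 and pandas 2.3.3.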

Additional observations from a re-analysis of the deposited data

Results flagged for a closer look

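Wnt5a and Dkk2 differed from control in opposite directions at 3 h and 48 h of the high dose, with signals more than 2 scanner errors apart at either time. For Wnt5a, the high dose minus control was -1.06 at 48 h and 0.83 at 3 h, so the 48 h effect lay 1.88 lower (a difference of -1.88). For Dkk2, the 48 h bound was -1.59 and the 3 h difference 0.79, a difference of -2.37. The measured Dkk2 signals of 48 h differed by -3.51 with an error of 1.46, the high-dose one being below background, and the bound itself is smaller than 2 such errors. Each time has 1 array per group, so the difference between times was not tested. Wnt5a kept its directions against the other control array, at -0.79 for 48 h and 0.55 for 3 h, while Dkk2 was at -0.61 for 48 h and -0.19 for 3 h, the same direction. With normexp Wnt5a was at 0.0881 for 48 h and 0.51 for 3 h, and the opposite directions were gone.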

How the results depend on the processing

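Of 346 recomputed values of single members, 321 kept their direction and their side of 2-fold or stayed under 2-fold, 15 fell under it, 6 passed it and 4 reversed. The reversals were Dkk3 (0.0503) and Wif1 (1.43) at 3 h of the high dose against the 48 h control, Wif1 (-0.67) at 48 h against the 3 h control, and Wnt5a at 48 h of the high dose with normexp (0.0881). With normexp, whose added offset of 50 is close to or above the signals of dim probes and so shrinks their differences, 1 member was called in the 3 h high-dose, the dose and the control comparisons, 2 at 48 h of the high dose and 0 from 3 h to 48 h of it. Rspo1 at 3 h was the member that held in the first. Against the 48 h control, 2 members (Dkk3 and Wif1, both higher) were called at the low dose, and 5 and 8 pathway genes at the high and low dose of 3 h. Without the filter on dim probes 6, 6 and 8 pathway genes were called at 3 h for the high dose, the low dose and the high against the low dose, 38 at 48 h of the high dose and 9 between the controls. Median centring, quantile normalization, the deposited value table and the mean over probes left every count of called members and pathway genes within 1.5 times. No paired analysis was possible because each group has 1 array. Depth is not defined for arrays, and precision is limited by their number. Wnt5a, Dkk2, Lef1 and Sfrp2 lie close to or below background. So does Rspo1 on the high-dose arrays of 3 h and 48 h, at 16.3 and 6.29 units. Sfrp1 and Dkk3 were dim at 48 h of the high dose, at 17.3 and 22.3 units.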

Other observations

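Between the control arrays, 1 of 77 measured genes of the pathway list was higher and 4 were lower at 48 h than at 3 h, with a median of -0.05, beside 2.5% and 1.36% of all measured genes. Wnt16 was the higher gene, at 1.05 (0.91 with median centring), and the lower ones were Wnt6 (-1.66), Wnt11 (-1.35), Wnt5b (-1.09) and Ccnd1 (-2.16), while Ascl2 was at least 2.5-fold higher. From 3 h to 48 h of the high dose, 8 of 75 measured genes of the list were higher and 17 lower, with a median of -0.16, beside 9.17% and 8.38% of all measured genes. The frizzled receptor gene Fzd10 was at 2.87 and the antagonist gene Dkk1 at 1.85 among the higher ones, and Fzd4 was at -3.30 and Nkd1 at -3.71 among the lower. Between the doses at 3 h, Wnt6 (-1.28) and Ccnd1 (-2.36) were lower and Fzd10 (1.30) was higher with the high dose, 3 of 83 measured, beside 0.913% of all genes lower and 1.27% higher, and Dkk1 was at least 6.90-fold higher.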
